A study of Homo sapiens with 6 samples.

Results

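The RNAs described here encode the human kinetochore and centromere proteins, the factors that load the centromeric histone CENP-A, and the core of the spindle checkpoint. The list names 39 genes, and the platform annotation gives a probe set with a single gene symbol for 38 of them, out of 19775 genes measured in all. CENPP had no such probe set and was not analysed here. The members were assigned by textbook function to 4 classes: 3 CENP-A loading factors, 12 measured inner kinetochore genes, 18 outer kinetochore genes and 5 checkpoint genes. RNA came from KOPTK1, a human T-ALL (T-cell acute lymphoblastic leukaemia) line grown in RPMI-1640 with fetal calf serum, after 48 h with vehicle (3 arrays) or with 1 µM PD0332991 (3 arrays). PD0332991, or palbociclib, inhibits CDK4 and CDK6, the cyclin D kinases that phosphorylate the retinoblastoma protein ahead of S phase. The replicates are biological triplicates of 1 line, per the submitters' design text, and the comparison is which RNAs differ after the inhibitor.

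The kinetochore is the protein machine that joins a chromosome's centromere to spindle microtubules. Its inner layer, the constitutive centromere-associated network, sits on nucleosomes that hold CENP-A in place of histone H3, and HJURP and the Mis18 complex put CENP-A there after each division. The outer layer, with the NDC80, MIS12 and SKA complexes and the fibrous corona, grips the microtubule, and unattached kinetochores recruit BUB1, BUBR1, BUB3, MAD2 and the kinase MPS1 to hold the cell before anaphase. Many of these genes are transcribed mostly in G2 and mitosis, so dividing leukaemia cells are known to carry their RNAs at high levels.

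Within a group, Pearson r between arrays was 0.993 to 0.996 across genes (which are not independent replicates), and between groups 0.976 to 0.979, and no array stood apart. Of 9 measured T cell and thymocyte markers the summed intensity was 22956 to 25271 with vehicle and 28934 to 30222 with PD0332991. In limma at an adjusted p under 0.05, 6 of the 9 were higher, against 15.6% of all genes, and CD3D, CD7 and CD5 did not pass. Of markers of B, myeloid, erythroid, fibroblast and epithelial cells, 22 genes in all, CD79A was the brightest at up to 641 and was higher with PD0332991. Their summed intensities were 519 to 592 against 779 to 934 for 5 B cell genes, 144 to 158 against 132 to 147 for 4 myeloid genes, 191 to 243 against 194 to 249 for 3 erythroid genes, 209 to 259 against 199 to 217 for 5 fibroblast genes, and 170.1 to 186 against 169 to 194 for 5 epithelial genes, vehicle first. No measured marker was at 0, the myeloid marker CD14 was at most 8.59, and the part of these levels in the results was not tested. The values come from bulk RNA, so fewer cells in G2 and mitosis and less RNA per cell cannot be told apart.

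Nearly all kinetochore RNAs were lower with PD0332991. Of the 38 measured members, 37 were lower with the inhibitor and 0 were higher in limma at an adjusted p under 0.05, against 13.6% of all genes lower and 15.6% higher. With no adjustment, 38 and 0 had a p under 0.05. The median log2 fold change of the members was −2.0, or 3.99-fold, beside 0.01 for all genes. At least 2-fold lower were 30 members against 2.55% of all genes, at least 4-fold lower were 19 against 0.753%, and at least 8-fold lower were 10 against 0.263%. On each of the 38 probe sets the highest PD0332991 array lay below the lowest vehicle array, as it did for 20.0% of all genes. The counts are a description, because the list was drawn up with earlier results of these data known.

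**Figure D1:**
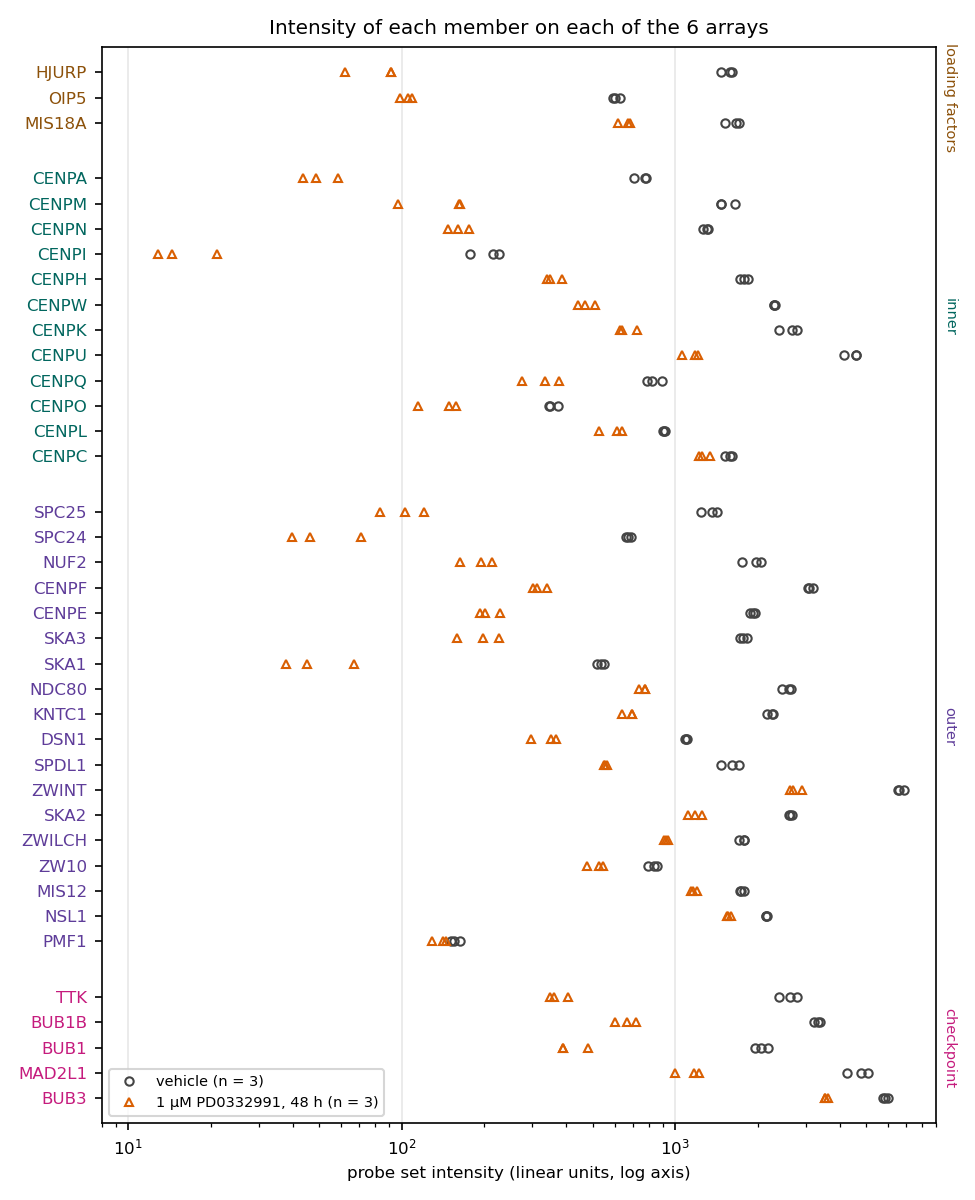
Intensity of each of the 38 members on each array (horizontal log axis, linear intensity units), with vehicle arrays as circles and PD0332991 arrays as triangles, n = 3 each. In every row the triangles lie to the left of the circles, from HJURP with the widest gap to PMF1 with the narrowest, and levels of different genes are not comparable because each probe set has its own response.

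The classes overlapped in the size of their decrease, and the spread within each class was wider than the distance between class medians. The median log2 fold change was −2.37 for the loading factors, −2.10 for the inner kinetochore, −1.68 for the outer kinetochore and −2.26 for the checkpoint genes. Taken per array relative to the vehicle mean, the outer median was −1.74, −1.63 and −1.60 on the 3 PD0332991 arrays and the inner median −2.19, −2.13 and −2.0, so the inner class lay lower on each array. The loading factors were at −2.44, −2.31 and −2.36 and the checkpoint genes at −2.36, −2.29 and −2.07. The outer class, the one with the most genes, ran from −3.53 for SPC25 to −0.16 for PMF1. The inner class ran nearly as far, from −3.55 for CENPA to −0.30 for CENPC. On the log2 scale used here the outer class had 7 members at least 8-fold lower, and its next member, NDC80, was at −1.73. The distance between the inner and outer medians depends on the choice of probe sets: with the mean of a gene's probe sets they were −1.69 and −1.66. Leaving out the _x_at and _s_at probe sets, which may bind more than 1 transcript, gave −1.70 and −1.54. That setting keeps only 10 inner and 14 outer genes, so its medians are also over fewer genes.

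**Figure D2:**
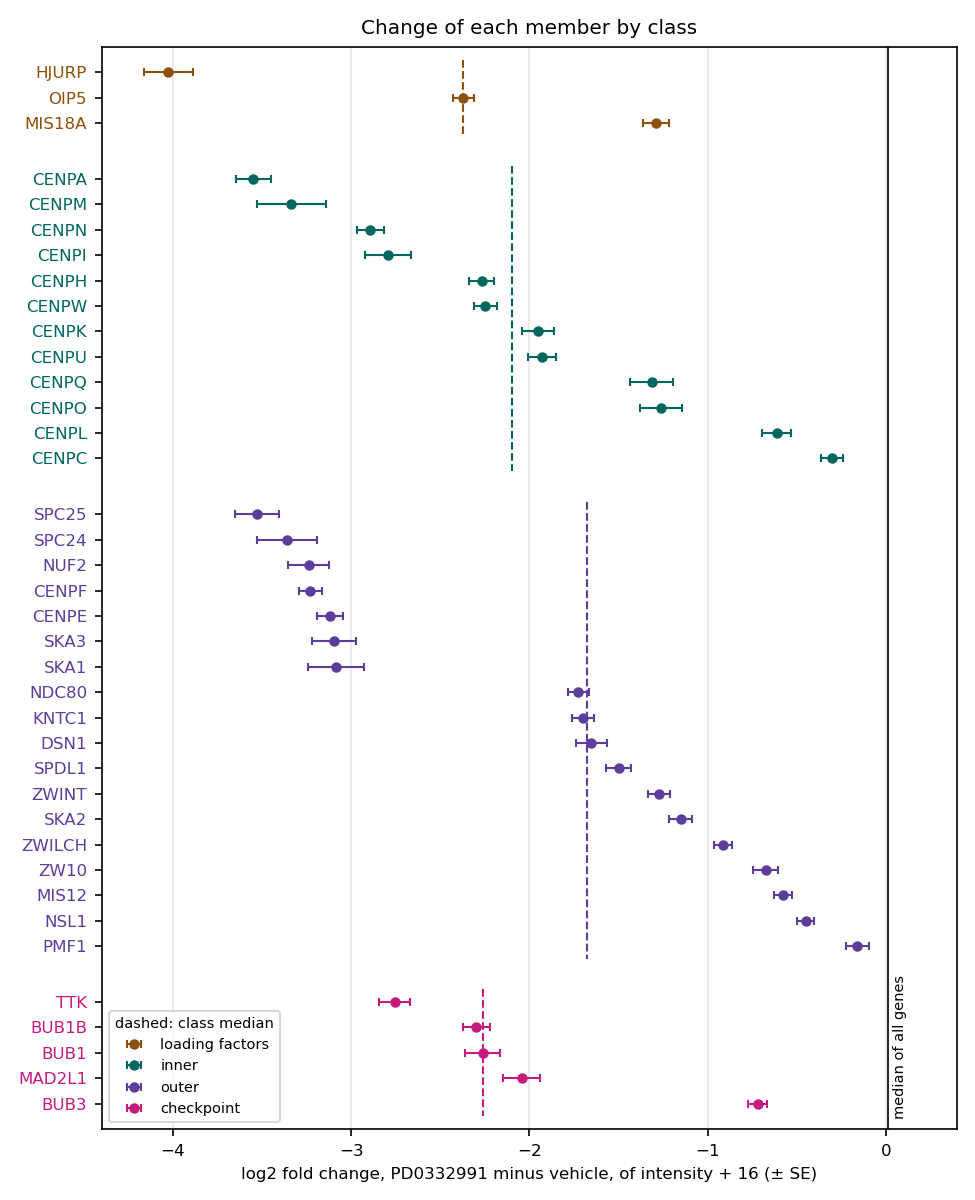
Log2 fold change of intensity + 16, PD0332991 minus vehicle, for each member (points) with its standard error (bars, limma, 3 against 3 arrays); dashed lines mark class medians and the solid line the median of all 19775 genes at 0.01. Outer kinetochore genes fall into 7 at or below −3.09 and 11 at or above −1.73, with none between.

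Promoter windows are printed for the members with the largest decrease among loading, inner and outer genes (HJURP, CENPA and SPC25) and for those with the smallest (CENPC and PMF1), to show which cell cycle motifs each holds. Sequences are from RefSeq on GRCh38.p14, 5′ to 3′ on the gene's strand, from 250 bases before the gene's start to 24 after it. Capitals mark CHR motifs (TTTGAA or TTTAAA, the cell cycle genes homology region bound by the DREAM and MYB-MuvB complexes), CCAAT boxes (CCAAT, bound by NF-Y) and E2F sites (TTTNNCGC), each searched on both strands. HJURP is at chr2:233854512-233854785 on the minus strand, CENPA at chr2:26785806-26786079 on the plus strand, SPC25 at chr2:168890407-168890680 on the minus strand, CENPC at chr4:67545480-67545753 on the minus strand and PMF1 at chr1:156212757-156213030 on the plus strand.
HJURP: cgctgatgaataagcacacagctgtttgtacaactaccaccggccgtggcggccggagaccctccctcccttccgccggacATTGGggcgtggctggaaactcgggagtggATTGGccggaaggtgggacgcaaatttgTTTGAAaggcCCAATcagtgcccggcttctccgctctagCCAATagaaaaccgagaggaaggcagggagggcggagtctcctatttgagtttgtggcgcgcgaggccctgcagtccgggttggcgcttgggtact
CENPA: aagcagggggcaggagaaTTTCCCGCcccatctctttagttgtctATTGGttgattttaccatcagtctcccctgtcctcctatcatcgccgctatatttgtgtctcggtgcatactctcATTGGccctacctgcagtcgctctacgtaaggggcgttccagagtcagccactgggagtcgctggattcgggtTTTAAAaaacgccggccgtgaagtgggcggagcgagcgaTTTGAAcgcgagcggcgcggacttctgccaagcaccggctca
SPC25: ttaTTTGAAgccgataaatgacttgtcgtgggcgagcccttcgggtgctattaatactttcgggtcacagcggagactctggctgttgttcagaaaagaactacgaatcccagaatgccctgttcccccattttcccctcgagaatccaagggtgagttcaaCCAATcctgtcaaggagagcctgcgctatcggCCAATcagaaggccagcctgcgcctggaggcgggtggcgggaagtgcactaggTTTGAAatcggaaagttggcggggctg
CENPC: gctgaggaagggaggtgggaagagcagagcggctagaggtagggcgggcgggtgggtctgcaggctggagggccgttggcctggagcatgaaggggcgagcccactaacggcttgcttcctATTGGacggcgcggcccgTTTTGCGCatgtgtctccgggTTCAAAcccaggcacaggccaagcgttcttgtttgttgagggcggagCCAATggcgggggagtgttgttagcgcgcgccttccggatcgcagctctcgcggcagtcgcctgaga
PMF1: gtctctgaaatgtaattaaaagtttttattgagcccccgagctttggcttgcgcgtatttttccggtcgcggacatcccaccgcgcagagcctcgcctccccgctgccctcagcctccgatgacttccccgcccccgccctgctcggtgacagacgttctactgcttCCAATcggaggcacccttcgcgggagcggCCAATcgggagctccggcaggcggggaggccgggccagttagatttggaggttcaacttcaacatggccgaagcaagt

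HJURP held 4 CCAAT boxes and 1 CHR that starts at position −111 relative to the gene's start, CENPA 2 CHR, 2 CCAAT boxes and 1 E2F site, and SPC25 2 CHR and 2 CCAAT boxes. The CHR of SPC25 nearest the start spans it, from position −3 to 3, where no position 0 is counted. CENPC, with a small decrease, held all 3 motifs as well, and PMF1 held 3 CCAAT boxes (the last of them past the printed bases) and no CHR or E2F match. Of the 31 measured members with a window in the RefSeq table, 16 were at least 4-fold lower, and 11 of these 16 (68.8%) held a CHR, against 6 of the other 15 (40.0%) and 18.9% of the 15384 measured genes with a window of the same 300 bases. A CCAAT box was present in 10 of the 16 (62.5%) and 11 of the 15 (73.3%), against 36.1% of all, and an E2F site in 2 and 4, against 8.70%. These shares are descriptions with no test; a match is not a shown site, and the absence of one says only that these letters are not in the window. CENPI, at −2.79, held none of the 3 motifs.

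**Figure D3:**
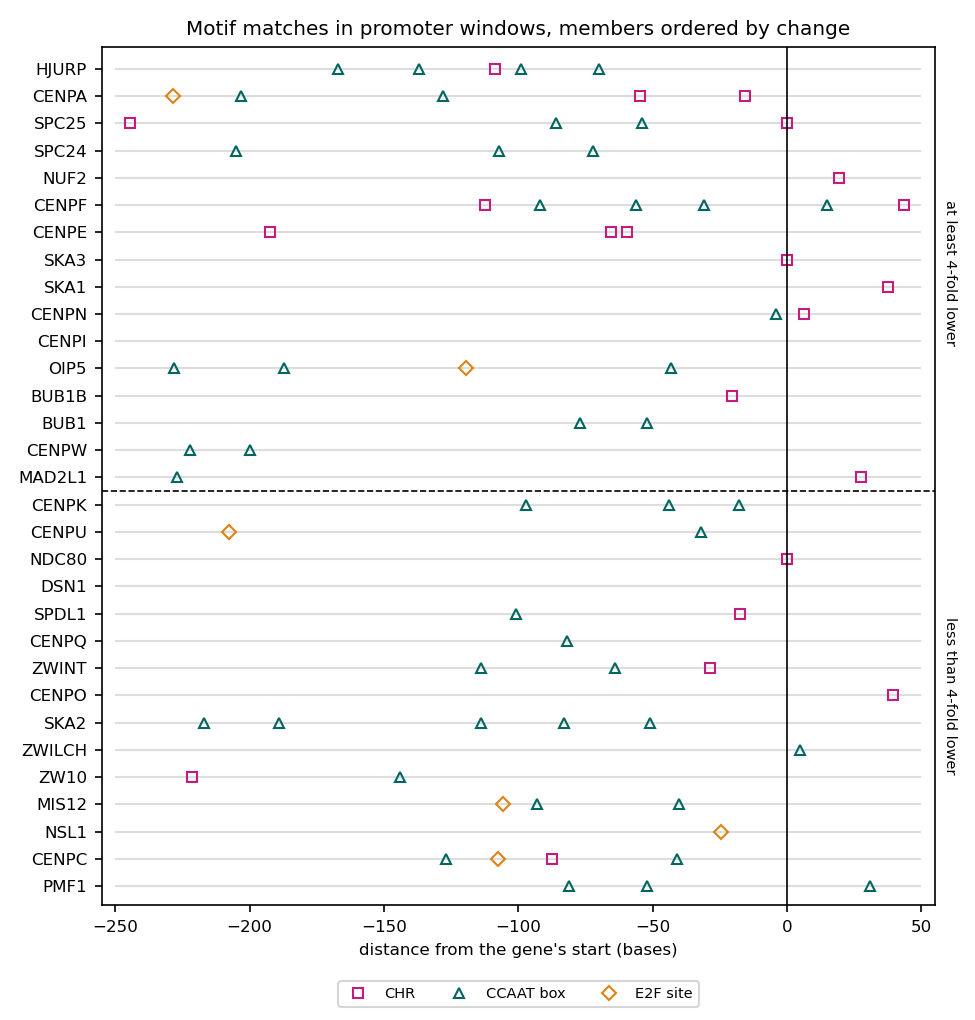
Motif matches in the promoter windows of the 31 measured members with a window (vertical axis, ordered from the largest decrease at the top), by distance from the gene's start in bases; squares are CHR, triangles CCAAT boxes and diamonds E2F sites. CHR squares occur in 11 of the 16 genes above the dashed line (at least 4-fold lower) and in 6 of the 15 below it.

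Among the CENP-A loading factors, HJURP, the chaperone that carries CENP-A to the centromere, had the largest decrease of all 19775 genes. Its intensities were 1589, 1611 and 1475 on the vehicle arrays and 62.1, 91.2 and 91.3 on the PD0332991 arrays, a change of −4.03 on the log2 scale (SE 0.14; adjusted p = 2.4e-05 in limma). With no pseudocount added, the mean of the treated arrays was 5.23% of the vehicle mean. OIP5, also called MIS18B, read 628, 590.1 and 601 with vehicle and 98.5, 109 and 106 with PD0332991, 5.17-fold lower (SE 0.06 on the log2 scale). Its partner in the Mis18 complex, MIS18A, read 1716, 1663 and 1524 against 620.0, 684 and 671, or −1.29 in log2 (SE 0.07). The groups of arrays were apart for each of the 3 genes, and within the Mis18 complex the OIP5 to MIS18A ratio changed by −1.08 in log2.

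All 12 measured inner kinetochore genes were lower. CENPA, the centromeric variant of histone H3, read 777, 708 and 783 with vehicle and 48.7, 43.4 and 58.5 with PD0332991, 11.7-fold lower (−3.55 in log2, SE 0.10; adjusted p = 2.4e-05 in limma). Its only probe set with a single symbol ends in _x_at. CENPC, which bridges the CENP-A nucleosome to the MIS12 complex, read 1592, 1612 and 1526 against 1345, 1223 and 1258, or −0.30 in log2 (SE 0.06; adjusted p = 0.013 in limma). The CENPC groups did not overlap, but its adjusted p was 0.0517 without vehicle replicate 1, 0.0555 without vehicle replicate 2 and 0.0502 without PD0332991 replicate 3. 

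In the CENP-HIKM group, which anchors the inner network, decreases ran from −1.95 to −3.34. CENPM, a GTPase-like subunit, read 1471, 1474 and 1650 with vehicle and 96.5, 163 and 162 with PD0332991, 10.1-fold lower (SE 0.19 on the log2 scale, the widest of the members). CENPI went from 207 ± 25.0 to 16.2 ± 4.38 (SD, n = 3 each), or −2.79 in log2, and its treated level lies at the pseudocount of 16 added before the log, so that size depends on the pseudocount. CENPH was 4.81-fold lower and CENPK 3.87-fold lower. In the CENP-LN pair, CENPN, which recognises the CENP-A nucleosome, read 1323, 1264 and 1301 against 147, 160.1 and 176, 7.43-fold lower. Its partner CENPL fell by 0.61 on the log2 scale (SE 0.08), from 911 ± 5.78 to 593 ± 57.5 (SD, n = 3 each), and the ratio of CENPN to CENPL changed by −2.28 in log2, the widest gap within any of the subcomplexes. A dimmer probe set of CENPL gave −1.31, and those of CENPN of intensity 100 or more with vehicle gave −1.74 and −1.92, so the gap is narrower on them.

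Of the CENP-OPQUR group, which helps NDC80 hold microtubules, CENPU was 3.81-fold lower, CENPQ 2.48-fold and CENPO 2.39-fold. CENPU went from 4430 ± 262 to 1153 ± 80.5, CENPQ from 834 ± 53.9 to 328 ± 51.2 and CENPO from 356 ± 14.1 to 141 ± 23.1 (SD, n = 3 each). CENPW, a histone-fold partner of CENP-T, went from 2304 ± 7.49 to 473 ± 32.7, 4.75-fold lower. Each of these 4 genes was at least 2-fold lower, which CENPC and CENPL were not.

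The outer kinetochore held 7 of the 10 members that were at least 8-fold lower, and also PMF1, the member with the smallest decrease. In the NDC80 complex, the rod that binds the microtubule, SPC25 read 1418, 1357 and 1245 with vehicle and 83.4, 103 and 120.2 with PD0332991, 11.5-fold lower (−3.53 in log2, SE 0.13; adjusted p = 2.5e-05 in limma). SPC24, which pairs with SPC25 at the inner end of the rod, read 659, 688 and 672 against 39.7, 46.1 and 71.2, 10.3-fold lower. NUF2, which pairs with NDC80 at the outer end, read 2061, 1981 and 1749 against 163, 195 and 215, 9.43-fold lower. NDC80 itself, the subunit that contacts the microtubule, went from 2566 ± 105 to 764 ± 22.6 (SD, n = 3 each), 3.31-fold lower. The SPC25 to NDC80 ratio changed by −2.07 to −1.61 in log2 on the PD0332991 arrays, relative to its vehicle mean, and by −0.04 to 0.03 on the vehicle arrays. NDC80 had 1 probe set with a single symbol, so the smaller decrease was read on that probe set alone.

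The MIS12 complex, which links the inner network to NDC80, moved less than the rod it carries. DSN1 went from 1094 ± 13.5 to 338 ± 36.2 (SD, n = 3 each), 3.15-fold lower, MIS12 fell by 0.58 on the log2 scale (SE 0.05), and NSL1 fell by 0.45 (SE 0.05; adjusted p = 0.0012 in limma). The NSL1 arrays read 2141, 2148 and 2162 with vehicle and 1597, 1553 and 1560.4 with PD0332991, a small but separate shift. PMF1, the fourth subunit, was the only member that did not pass, with 155, 151 and 164 against 129, 141 and 145, or −0.16 in log2 (SE 0.07, adjusted p = 0.128 in limma). PMF1 was read on 1 probe set alone, and its vehicle mean of 157 was the lowest of the members. The lowest vehicle array and the highest PD0332991 array, at 151 and 145, nearly touched, and it passed only when the test was kept to brighter genes (adjusted p = 0.0428); its adjusted p reached 0.263 over the other settings. The complex thus had a median log2 fold change of −0.51 beside −3.30 for the NDC80 complex. ZWINT, a partner of the scaffold protein KNL1, went from 6654 ± 178 to 2747 ± 149 (SD, n = 3 each), 2.42-fold lower.

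The SKA complex, which keeps NDC80 on shortening microtubules, split as well. SKA3 was 8.57-fold and SKA1 8.50-fold lower, while SKA2 was 2.22-fold lower. SKA2 went from 2638 ± 31.0 to 1182 ± 72.3 and SKA3 from 1772 ± 53.1 to 195 ± 34.0 (SD, n = 3 each), and the other probe set of SKA2 gave −1.24 beside −1.15. The corona proteins CENPE, a kinesin that moves chromosomes to the spindle equator, and CENPF, a large microtubule-binding protein, were 8.68-fold and 9.38-fold lower, with treated means of 207 and 318 against 1919 and 3116. The brighter 2 probe sets of CENPF, at 3116 and 1660.4 with vehicle, gave −3.23 and −3.34, and the dimmest, at 75, gave −0.81. The RZZ complex and Spindly, which bring dynein to the kinetochore, moved less than CENPE and CENPF. KNTC1, the rod subunit, was 3.25-fold lower, SPDL1 2.83-fold, ZWILCH 1.88-fold and ZW10 1.60-fold. ZW10 went from 830.3 ± 35.0 to 515 ± 35.4 and ZWILCH from 1761 ± 42.4 to 927 ± 15.6 (SD, n = 3 each), and neither pair of groups overlapped.

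Of the 5 checkpoint genes, 4 were more than 4-fold lower and BUB3 was not. TTK, which encodes the kinase MPS1 that starts checkpoint signalling, read 2790, 2629 and 2397 with vehicle and 347, 362 and 407 with PD0332991, 6.76-fold lower (−2.76 in log2, SE 0.09; adjusted p = 2.4e-05 in limma). BUB1B, which encodes BUBR1 of the mitotic checkpoint complex, read 3323, 3228 and 3389 against 603, 666 and 719, 4.92-fold lower. The kinase gene BUB1 read 2185, 2056 and 1949 against 389.8, 389 and 478, 4.80-fold lower. MAD2L1, which encodes MAD2, was 4.12-fold lower, from 4702 ± 412 to 1129 ± 114 (SD, n = 3 each), and its other 2 probe sets gave −2.39 and −2.44. BUB3, the shared WD40 partner of BUB1 and BUBR1, read 6017, 5854 and 5730.4 against 3541, 3607 and 3522, or −0.72 in log2 (SE 0.05; adjusted p = 2.4e-04 in limma). The ratio of TTK to BUB3 changed by −2.12 to −1.90 in log2 on the PD0332991 arrays.

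Most dimmer probe sets of the same genes were also called lower. Besides the 38 probe sets used, 15 members had 32 more with a single symbol. In a limma fit over all probe sets, a check added after the data were seen, 24 of the 32 were lower and 0 were higher (also 0 at an unadjusted p under 0.05). The other 8 did not pass, and each of those 8 had a vehicle mean of at most 94.8. The share of all probe sets called in that fit is not given here. In the fit of 1 probe set per gene, 13.6% of all genes were lower and 15.6% higher. All 19 with a vehicle mean of 100 or more were lower. That cut reads the vehicle arrays alone, where these genes are high, so it favours probe sets that fell and the count is a description. These 19 differed from the probe set used by a median of 0.25 on the log2 scale. The widest of these differences, 1.16, was in CENPN. The dim second probe set of SPC24 read 7.04 with vehicle and 8.34 with PD0332991, below the pseudocount, and the 5 dim ones of BUB1, CENPI and CENPN that did not pass were at −0.51 to −0.17 on the log2 scale.

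**Figure D4:**
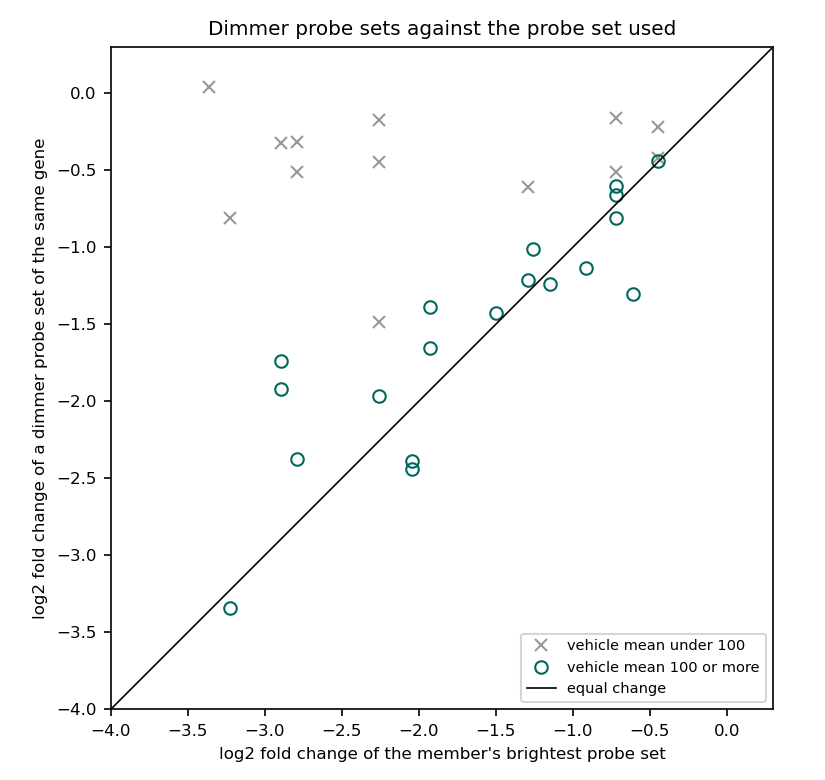
Log2 fold change of each of the 32 dimmer probe sets (vertical) against that of the probe set used for the same gene (horizontal); circles have a vehicle mean of 100 or more, crosses less, and the line marks equal change. The 19 circles lie a median of 0.25 and at most 1.16 above or below the line, while most crosses lie nearer to 0.

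Other genes of the same pathway, from a list of 31 of which 29 were measured, moved in part. Of the 29, 19 were lower, 2 higher and 8 did not pass in limma, with a median log2 fold change of −1.13, against 13.6% and 15.6% of all genes. KIF2C, a microtubule-depolymerising kinesin of the centromere, fell by 3.71 on the log2 scale, and CDC20, the target of the checkpoint, fell by 3.54. The chromosomal passenger genes AURKB, BIRC5 and CDCA8 had log2 fold changes of −3.42, −3.30 and −3.19. KNL1, the scaffold that BUB1 and BUB3 dock on, read 1578, 1539 and 1504 with vehicle and 167, 180 and 208 with PD0332991, or −2.96 in log2 (SE 0.09; adjusted p = 2.4e-05 in limma). CENPX and ITGB3BP, which encode inner kinetochore subunits (CENP-X and CENP-R), were at −1.37 and −1.13.

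Among the brightest of the list that did not pass, the histone chaperone gene RBBP4 was at −0.12 (adjusted p = 0.276), the chromatin remodelling gene RSF1 at 0.16 (0.149) and the dynein regulator gene NDEL1 at 0.18 (0.0983), all in limma. Averaging each gene's probe sets put RBBP4 at −0.38 (limma adjusted p = 0.0022) and RSF1 at −0.0063. Leaving out the _x_at and _s_at probe sets put RBBP4 at −0.50 (limma adjusted p = 0.0036), RSF1 at 0.29 (0.047) and NDEL1 at −0.15. The 2 that rose were MAD1L1, which encodes the MAD1 partner of MAD2, at 0.55 (SE 0.12, limma adjusted p = 0.020) and the dynein regulator gene PAFAH1B1 at 0.22 (SE 0.06, limma adjusted p = 0.041). MAD1L1 read 150.3, 173 and 211 with vehicle and 256, 287 and 255 with PD0332991, with no overlap. MAD1L1 had an adjusted p of 0.0664 without vehicle replicate 2, and of 0.0537, 0.0663 and 0.0519 without PD0332991 replicate 1, 2 or 3. PAFAH1B1 had 0.127 and 0.130 without vehicle replicate 1 or 2, 0.0973, 0.0707 and 0.0923 without PD0332991 replicate 1, 2 or 3, and 0.102 with the replicate number as a block. The count of higher genes was thus 1 without vehicle replicate 1 or with the block and 0 without vehicle replicate 2 or any 1 PD0332991 array.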

How the data were processed

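The authors deposited linear intensity values for 54675 probe sets on each array, already summarised; the sources used here do not name the method. Values ran from 0.56 to 16362, and with array medians of 49.1 to 54.3 the values were used as deposited. There are no detection calls, and precision is limited by having 3 arrays a group. Control probe sets (62) were left out.

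Of 54613 other probe sets, 41091 had 1 symbol in the platform annotation of GEO, 1801 several and 11721 none; symbols were updated by gene ID through RefSeq. The probe set with the highest mean over 6 arrays stood for each gene, without a filter on dim genes. Values were log2(intensity + 16), the scale of all fold changes, on which dim genes change less. The group difference was tested with limma 3.58.1 under R 4.3.3 (two-sided, 4 residual degrees of freedom), Benjamini-Hochberg adjusted over 19775 genes, threshold 0.05. A simulation of the group difference held 19775 genes, of which 19575 were unchanged. Log2 changes of 0.5, 1 and 2 were recovered for 23, 34 and 50 of 50 genes, and 13 of the 19575 were called. In the data 2698 genes were lower and 3088 higher. The Benjamini-Hochberg cut depends on the share of genes that change, so these recovery counts do not carry over to the data. Motif searches used RefSeq windows on GRCh38.p14, the first listed per gene.

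Members, classes and lists were chosen with earlier results of these data known. Array values were given for the 3 largest and the smallest decrease per class, for members that did not pass, and for a few others chosen after their values were seen; of the other pathway genes, the 4 largest decreases and the 4 brightest that were higher or did not pass were named, with KNL1, CDCA8, CENPX, ITGB3BP and MAD1L1 added after their values were seen. Deviations of same-numbered arrays from their group means had r of 0.0033, 0.076 and 0.083 over genes, against −0.079 to 0.022 for differently numbered ones. With 3 arrays a group, these values cannot show whether the number pairs them. Alternatives were leaving out an array, the replicate block, centring on the median or 75th percentile, quantiles, brighter genes only, averaged probe sets, no _x_at or _s_at probe sets, a trend, robust fitting, array weights, pseudocounts 1 and 64 and a threshold of 0.01.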

Additional observations from a re-analysis of the deposited data

How the results depend on the processing

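All 38 members kept their direction under each of the 18 alternatives in which they could be computed, and 36 of them kept their side of the threshold; the exceptions were CENPC and PMF1, as given above. The count of lower members ran from 36 to 37 with 1 array left out and was 37 with the replicate block. When all probe sets of the members were counted, 61 of 70 were lower, with no share of all probe sets to set beside it. Leaving out _x_at and _s_at probe sets left 32 members. The members' median was −1.68 with averaged probe sets, −1.73 on those 32 members and −1.88 with a pseudocount of 64, and ran from −2.06 to −1.94 with 1 array left out. The loading factors' median was −2.53 and −1.99 with pseudocounts of 1 and 64. The inner median was −1.69, −1.70 and −1.88 with averaged probe sets, with no _x_at or _s_at probe sets and with a pseudocount of 64. The outer median was −1.54 with no such probe sets and −1.58 with a pseudocount of 64, and ran from −1.72 to −1.61 with 1 array left out; the checkpoint median was −2.14 with a pseudocount of 64. Some members moved far with the choice of probe set. CENPF was at −0.81 with no _x_at or _s_at probe sets, on a dim one. With averaged probe sets, dim ones among them, SPC24 was at −1.66, CENPI at −1.50, BUB1 at −1.27 and CENPN at −1.72. Not all such probe sets were dim: with no _x_at or _s_at probe sets CENPN was at −1.74 and CENPL at −1.31. The probe sets read there had vehicle means of 472 and 427.

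Of the other pathway genes, the higher ones numbered 1 with the replicate block, with median centring, with averaged probe sets and with a pseudocount of 1, 4 with trend, 0 at a threshold of 0.01, and 0 to 2 with 1 array left out. Averaged probe sets put RSF1 at −0.0063 and PAFAH1B1 at −0.0019, and NDEL1 was at −0.15 with no _x_at or _s_at probe sets; the cause was not tested. At a threshold of 0.01, 1736 of all genes were lower and 1787 higher, in place of 2698 and 3088. Whether same-numbered arrays are pairs could not be told, and the replicate block changed no member's call. The pseudocount of 16 limits what can be read of CENPI, SKA1, SPC24 and CENPA at their treated levels.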
